A study of Mus musculus with 96 samples.

Results

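Ptprc, Cd40 and Il17ra are the immune-related genes of a panel of 96 quantitative PCR assays, each run on 96 single cells of the mouse uterus. The 3 genes were chosen by name, through the assays that carry the CD names CD45, CD40 and CD217. No value entered that rule, but earlier results of these data were known when the choice was made. All cells belong to 1 group: they came from the uterus at postnatal day 7, were freed with type I collagenase, and were sorted singly for CD326 (EpCAM, an adhesion molecule of epithelial cells). The labels give no strain, genotype, treatment or number of animals, so cells are not replicates, no test was made and no p-value is given. The measured quantity is the cycle threshold (Ct), the first PCR cycle with a product signal, so that more template gives a lower Ct.

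Ptprc encodes CD45, a transmembrane tyrosine phosphatase carried by nucleated blood cells, where it acts on Src-family kinases, and it is the usual marker of leukocytes. Cd40 encodes a receptor of the TNF receptor family on B cells, dendritic cells and macrophages that is triggered by CD40 ligand on activated T cells, and other cells including epithelium can also carry it. Il17ra encodes the shared receptor chain for interleukin-17 cytokines, is found on many cell types, and lets epithelial cells answer interleukin-17. A transcript of Ptprc is therefore the least usual of the 3 in an epithelial cell.

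The sorted cells carried epithelial transcripts. Of 96 cells, Krt19 was detected in 93, Krt18 in 91, Krt8 and Cd24a in 87 each, Cdh1 in 85 and Epcam, the gene of the sorted antigen, in 74. Detection means a Ct below 28 here. Gapdh, a glycolytic gene used as a reference, had a Ct above 18 or none in 8 cells, which are called low-Gapdh cells here. Cell 67 is 1 of them and has no recorded Ct in the first 71 assays of the table, where all 3 immune-related genes lie, so that cell gives no information on them. It is still counted as a cell without the 3 genes in every set that holds it.

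All 3 genes were detected in a large share of the cells. Cd40 was detected in 68 of 96 cells, which is 70.8% (exact Clopper-Pearson 95% interval 60.7 to 79.7%, counting error only, as for all intervals here). Ptprc was detected in 57 cells, or 59.4% (interval 48.9 to 69.3%). Il17ra was detected in 48 cells, or 50.0% (interval 39.6 to 60.4%). The intervals of neighbours in this order overlap, and that of Cd40 lies just above that of Il17ra. They do not use the fact that the 3 shares come from the same cells. Cd40 without Ptprc was found in 19 cells and the reverse in 8. Ptprc without Il17ra was found in 21 and the reverse in 12, and Cd40 without Il17ra in 27 and the reverse in 7.

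Among the 96 assays Cd40 tied for place 33 by share of cells, Ptprc tied for place 43 and Il17ra took place 53. Next to Cd40 stood Cd200 and sma (70 cells each) and Mme (73) above, Itga6 at an equal 68, and Tdgf1 (67) and Hprt (64) below. Ptprc shared its 57 cells with Lgr6 and Sall4, between Cd55 (61) and Msi1 (58) above and Insr and Krt15 (56 each) below. Il17ra stood below Wnt7a (52), Ncam1 (50) and Cd34 (49) and above Itga5 (45), h2b (44) and Pax2 (43). The 3 genes thus lay in the middle of the panel.

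In the detecting cells the Ct of the 3 genes lay in similar ranges, near or after the middle of the panel. Among 86 assays found in at least 10 cells, Ptprc took place 44 from the earliest by median Ct, Cd40 place 55 and Il17ra place 59. The Ct of Ptprc ran from 16.2 to 22.8 with a median of 19.8. The Ct of Cd40 ran from 16.2 to 24.2 with a median of 20.3. The Ct of Il17ra ran from 16.6 to 22.4 with a median of 20.5. Gapdh ran from 9.43 to 22.9 with a median of 13.4, so the usual cell reached the Gapdh threshold several cycles sooner.

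**Figure D1:**
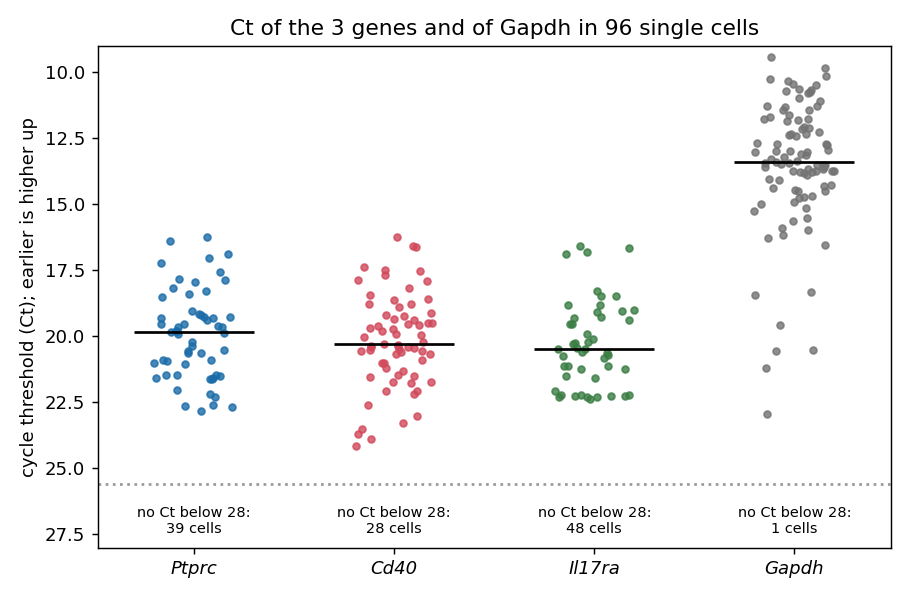
Cycle threshold of Ptprc, Cd40, Il17ra and, as the reference, Gapdh in each of 96 cells, with the axis turned so that earlier values are higher; each point is a cell, bars are medians over detecting cells, and the text under the dotted line counts cells with no Ct below 28. The 3 genes span 16.2 to 24.2, and 39, 28 and 48 cells have no Ct for Ptprc, Cd40 and Il17ra.

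On a log2 scale of 28 minus Ct, mean levels in the detecting cells were 8.06 ± 1.67 for Ptprc (SD, n = 57 cells), 7.84 ± 1.78 for Cd40 (n = 68) and 7.72 ± 1.63 for Il17ra (n = 48). The order was Ptprc, Cd40, Il17ra, and no neighbours in it differed by more than their spread. Levels of different assays compare only in rough order, since primer efficiency is not given in the sources used here. Epcam, by the same scale, stood at 7.25 ± 2.55 in its 74 cells.

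The step between detected and undetected was sharp for these genes. Of 173 recorded Ct values of the 3 genes only 1, a Cd40 value, lay at 24 or later (0.578%), against 385 of 4723 recorded values of the other assays (8.15%). No cell moved between detected and undetected for Ptprc or Il17ra when the limit was set at 24 or 26 or at any recorded Ct. A late Ct was not the rule elsewhere either: among 83 other assays found in at least 10 cells, the latest Ct came before 25 in 41 and at 26 or later in 30.

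Il17ra also had an abrupt late edge, a feature looked for after its values were seen. Of its 48 values, 11 (22.9%) fell in the last 0.5 cycle before its latest Ct of 22.4. The same share was 7.02% for Ptprc, 4.41% for Cd40 and a median of 2.94% over the 83 other assays, whose highest was 20.0%. The cause was not tested.

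Single cells show the range. In cell 60, which had the earliest Gapdh of all (Ct 9.43) and detected 75 of the 93 other assays, Ptprc came at 16.4, Cd40 at 16.6 and Il17ra at 16.6. Cell 70 had the earliest Ptprc (16.2), with Cd40 at 17.5 and Il17ra at 16.9. Cell 59 had the earliest Cd40 (16.2) and a Ptprc Ct of 16.9 but no Il17ra, while cell 9 had the earliest Il17ra (16.6) with Ptprc at 18.4 and Cd40 at 18.6. Cells rich in one of these transcripts were thus not always rich in the other two. In cell 69, Cd40 came at 16.6 but Ptprc only at 21.5 and Il17ra at 19.0.

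Detection of all 3 genes was the most frequent pattern. All 3 were found in 32 cells (33.3%, interval 24.0 to 43.7%), exactly 2 of them in 30 cells, 1 in 17 cells and none in 17 cells. Among cells with 2 genes, Ptprc with Cd40 made up 17, Cd40 with Il17ra 9 and Ptprc with Il17ra 4. Among cells with a single gene, Cd40 was alone in 10, Ptprc in 4 and Il17ra in 3. Counted with the cells that had all 3, Ptprc and Cd40 were found together in 49 cells, Cd40 and Il17ra in 41, and Ptprc and Il17ra in 36.

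The pattern moved with the depth of the cell, given by the number of the 93 other assays that it detected. The 32 cells with all 3 genes detected a median of 55.5 others (range 46 to 75) at a median Gapdh Ct of 12.3. The 17 cells with none detected a median of 40 (range 9 to 65) at a median Gapdh Ct of 15.9, and 6 of them were low-Gapdh cells. Depth did not separate the patterns fully, since 11 cells outside the low-Gapdh group also had none of the 3, and some of those had over 46 other assays. Of the 17 cells with none, 9 detected all 6 epithelial markers.

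**Figure D2:**
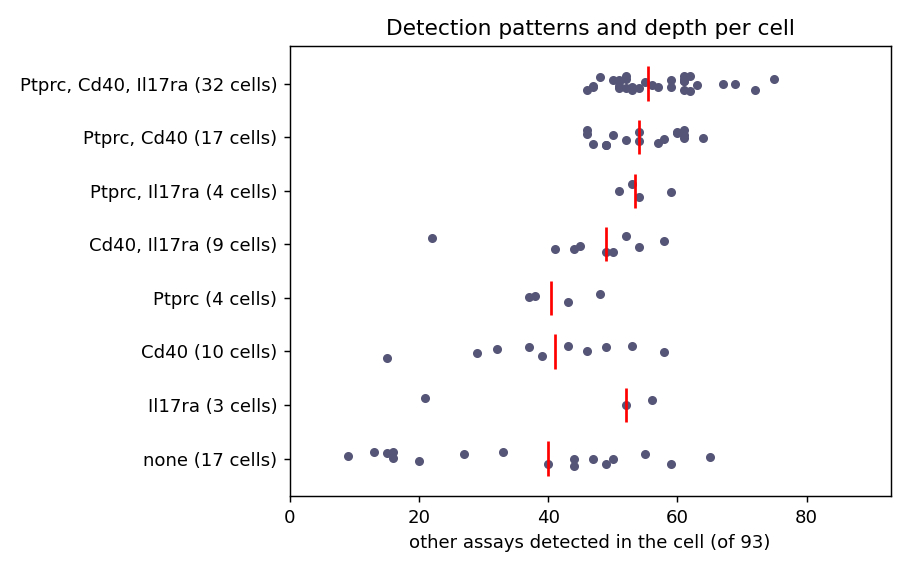
Number of the 93 other assays detected in each cell (horizontal axis) by which of Ptprc, Cd40 and Il17ra the cell detected (vertical axis); points are cells and red bars medians. The 32 cells with all 3 genes lie between 46 and 75, and the 17 cells with none between 9 and 65.

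Shares by Gapdh show in which cells the genes were missing. Over 4 sets of 24 cells from the earliest to the latest Gapdh, Ptprc was detected in 18, 16, 19 and 4 cells. Cd40 was detected in 21, 19, 18 and 10 cells over the same sets, and Il17ra in 16, 16, 12 and 4. Ptprc kept a share between 66.7% and 79.2% over the first 3 sets and had 16.7% in the last (interval 4.74 to 37.4%), whereas the median share of the other 93 assays went stepwise through 75.0%, 62.5%, 54.2% and 29.2%.

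**Figure D3:**
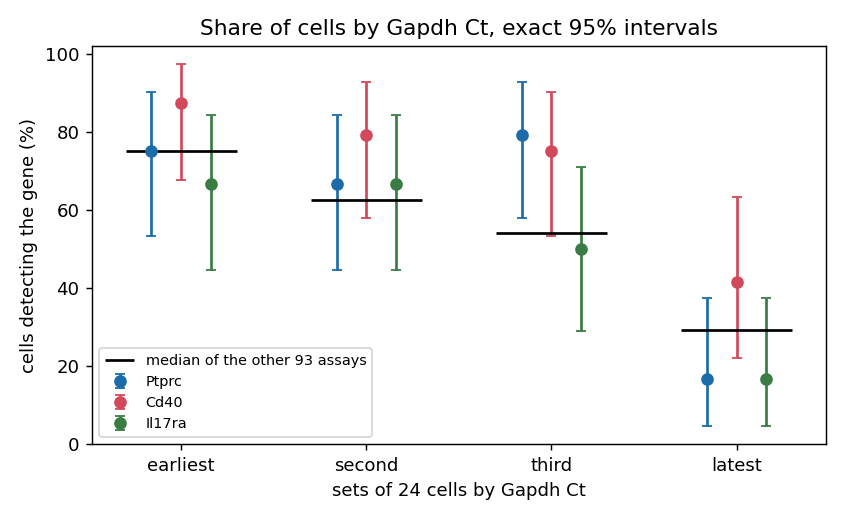
Share of cells detecting Ptprc, Cd40 and Il17ra (vertical axis, %) in sets of 24 cells ordered by Gapdh Ct from earliest to latest (horizontal axis), with exact 95% intervals, and the median share of the 93 other assays as black bars. Ptprc stays between 66.7% and 79.2% in 3 sets and is at 16.7% in the latest.

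In the 8 low-Gapdh cells Ptprc and Il17ra were detected in 0 cells, which by the exact interval allows a share of up to 36.9%, and Cd40 in 2, cells 2 and 25. Outside these 8 cells the shares were 64.8% for Ptprc, 75.0% for Cd40 and 54.5% for Il17ra. Between the 48 cells with the earliest Gapdh and the other 48, the share differed by 22.9 percentage points for Ptprc, 25.0 for Cd40 and 33.3 for Il17ra, against a median of 16.7 over the 93 other assays. Il17ra exceeded 81 of those 93 in this difference. A cell that lacks a gene here may carry it below what its template allows to be seen, and absence and low template cannot be told apart.

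Among the detecting cells, the Ct of Ptprc followed that of Gapdh most closely. Spearman's rho was 0.75 and Pearson's r 0.77 over 57 cells (r = 0.73 with the 2 most extreme Gapdh values left out). For Cd40 rho was 0.68 and r 0.69 over 68 cells (r = 0.67 without 2 cells). For Il17ra rho was 0.38 and r 0.44 over 48 cells (r = 0.42 without 2 cells). The same rho had a median of 0.52 over 82 other assays, of which 77 lay below Ptprc, 67 below Cd40 and 26 below Il17ra. With actin as the reference in place of Gapdh, rho was lower for each gene, at 0.53 for Ptprc, 0.38 for Cd40 and 0.14 for Il17ra, in the same order. These are descriptions over cells, whose assays share 1 reverse transcription and preamplification, and 9 such relations of the 3 genes were computed.

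**Figure D4:**
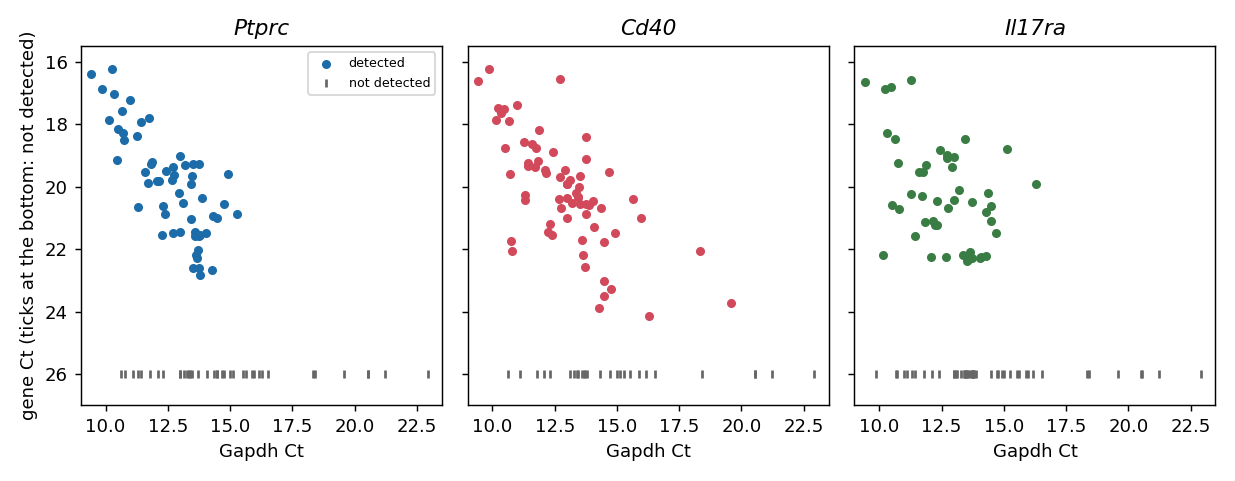
Ct of Ptprc, Cd40 and Il17ra (vertical axes, earlier values higher) against the Ct of Gapdh in the same cell (horizontal axes); coloured points are detecting cells and grey ticks at the bottom mark the Gapdh Ct of cells without the gene (cell 67, with no Gapdh value, is not drawn). Ptprc and Cd40 come later as Gapdh does (rho 0.75 and 0.68), Il17ra less closely (0.38), with a row of values near 22; against actin, not drawn, rho is 0.53, 0.38 and 0.14.

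Set against Gapdh in the same cell, Ptprc came 7.36 ± 1.07 cycles later (SD, n = 57 cells, range 4.68 to 9.35), Cd40 7.26 ± 1.44 cycles later (n = 68, range 3.74 to 11.3) and Il17ra 7.70 ± 1.67 cycles later (n = 48, range 3.65 to 12.0). On this scale Cd40 had the highest mean level in place of Ptprc, by less than either spread, and the spread of Ptprc was the smallest of the 3. Cells with all 3 genes had a median Ptprc Ct of 19.5 and the other Ptprc cells 20.6, but relative to Gapdh the medians were 7.44 and 7.43 cycles. For Cd40 the medians relative to Gapdh were 7.32 cycles in cells with all 3 genes and 6.93 in its other cells, and for Il17ra 7.95 and 7.33, so these 2 genes came later after Gapdh in the cells with all 3, by less than the SD of either gene.

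In raw Ct, pairs of these genes had a rho of 0.64 for Ptprc and Cd40 (49 cells, r = 0.64), 0.55 for Ptprc and Il17ra (36 cells, r = 0.61) and 0.54 for Cd40 and Il17ra (41 cells, r = 0.57). With the 2 most extreme cells of the first gene left out, r was 0.59, 0.48 and 0.61. Within a cell, Cd40 minus Ptprc had a median of 0.18 cycles (range -4.93 to 3.21) and was above 0 in 28 of 49 cells. Il17ra minus Ptprc had a median of 0.33 (range -2.51 to 4.34) and was above 0 in 21 of 36 cells. Neither gene of a pair was regularly the earlier one.

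Cells with Ptprc carried epithelial transcripts. Krt18 and Krt19 were detected in 57 of 57 cells with Ptprc, against 34 and 36 of 39 without. Epcam was detected in 47 of 57 cells with Ptprc (82.5%, interval 70.1 to 91.3%) and in 27 of 39 without (69.2%, interval 52.4 to 83.0%). Cdh1, which encodes E-cadherin, was detected in 53 of 57 cells with Ptprc and in 32 of 39 without. All 6 epithelial markers were found in 44 of the 57 cells with Ptprc and in 21 of the 39 without, and no cell with Ptprc had fewer than 4. The median Gapdh Ct was 12.7 in the cells with Ptprc and 14.5 in those without, which include all 8 low-Gapdh cells.

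In the 48 cells with the earliest Gapdh, Epcam was detected in 27 of 34 cells with Ptprc (79.4%) and in 13 of 14 without (92.9%), so the direction turned. The exact intervals, 62.1 to 91.3% and 66.1 to 99.8%, overlap. Its median Ct was 20.0 in the 27 cells with Ptprc and 17.8 in the 13 without, and that of Cd24a 15.7 in 34 and 13.7 in 14. The ranges overlapped, running from 16.3 to 24.6 and from 15.2 to 22.4 for Epcam. Cdh1 (16.7 with and 15.9 without) and Krt18 (14.3 and 13.8) also came later with Ptprc. Krt8 went the other way, with a median Ct of 16.4 in cells with Ptprc and 17.6 in cells without, as did Krt19 by less (18.0 and 18.3). In these early-Gapdh cells the epithelial genes had no common direction with Ptprc, by median Ct or by share. Cdh1 was detected in 91.2% of cells with Ptprc and 100% without, and Krt8 in 97.1% and 92.9%. Over all 96 cells all 6 were detected more often with Ptprc, by 7.69 to 18.8 percentage points. Their median Ct went both ways there too. It was later with Ptprc for Epcam (21.3 and 20.6), Krt18 and Cdh1, and earlier for Krt8 (18.1 and 19.2), Krt19 and Cd24a. Epcam was also lower with Ptprc in the 63 cells with all reference genes, at 88.1% with and 90.5% without. In the 48 cells with the latest Gapdh, Epcam was higher with Ptprc, in 20 of 23 cells (87.0%) against 14 of 25 without (56.0%). Its small difference for Cd40 turned too, with 77.9% with and 75.0% without over all cells, but 77.3% with and 86.4% without when the low-Gapdh cells were left out.

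Seen from the other side, Ptprc was detected in 47 of 74 cells with Epcam (63.5%) and in 10 of 22 without (45.5%). Cd40 was detected in 53 of 74 cells with Epcam (71.6%) and in 15 of 22 without (68.2%), and Il17ra in 36 of 74 (48.6%) and 12 of 22 (54.5%). The exact intervals of each pair overlap. The median number of other assays detected was 53 with Epcam and 44.5 without.

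Of 16 leukocyte markers listed for the check, Ptprc was the only one with an assay, so no second defining marker of leukocytes could be set beside it. None of 10 listed genes of CD40 and interleukin-17 receptor signalling and none of 4 listed kinases acted on by CD45 had one. Markers of other cell types were present in most cells: Pecam1 in 93, Nt5e in 83, Mme in 73, sma in 70 and Cd34 in 49, while Thy1 was found in 17, Mcam in 15, Eng in 13 and Vim, of mesenchymal cells, in 7. Cells with Ptprc detected a median of 2 of 3 endothelial markers (range 1 to 3), against 1 in cells without (range 0 to 3), and a median of 3 of 6 stromal markers (range 2 to 5), against 2 (range 0 to 5). They also detected more assays in general, with a median of 54 other assays against 44. The median difference in share was 7.69 percentage points for the endothelial and 9.78 for the stromal markers. Over all 95 other assays it was 16.3. Both list medians lay below that value, but single markers did not. The endothelial markers ranged from 1.21 to 51.4 points (Cd34) and the stromal markers from -0.675 to 37.4 (Mme). Pecam1, found in 93 cells, had little room to differ, so the median of so short a list says little. The part of other cell types or of doublets in the detection of Ptprc was not tested.

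Co-detection with Ptprc was set out over all 95 other assays, with the share in cells with Ptprc minus the share in cells without. Of them, 34 (35.8%) were higher by at least 20 percentage points and 0 (0%) were lower by as much, and the cells with Ptprc were deeper, with a median of 54 other assays against 44. Cd40 was 1 of the 34, with 86.0% of cells with Ptprc (49 of 57) and 48.7% of cells without (19 of 39), in place 8 of 95 by difference. Il17ra was also among them, with 63.2% (36 of 57) and 30.8% (12 of 39), in place 14.

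Ahead of both stood Enpep, which encodes an aminopeptidase, with 89.5% of cells with Ptprc and 28.2% of cells without, and Cd34, a sialomucin of blood progenitors and vessels, with 71.9% and 20.5%. Tdgf1, an EGF-CFC co-receptor gene, had 89.5% and 41.0%. Also ahead of both were Krt15, a keratin gene, with 73.7% and 35.9%, and Mme and Igf2r, with 91.2% and 53.8% each. Itgae, which encodes the integrin chain CD103 of lymphocytes that lie in epithelia and bind E-cadherin, was detected in 30 of 57 cells with Ptprc (52.6%, interval 39.0 to 66.0%) and in 4 of 39 without (10.3%, interval 2.87 to 24.2%). Itgae was on no list and was chosen after its values were seen.

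The 15 measured surface genes that blood cells share had a median difference of 22.0 percentage points for Ptprc, and 9 of 15 were higher by at least 20 points, against 34 of 95 over all other assays. Among the 9, Cd44, a hyaluronan receptor gene, had 89.5% with Ptprc and 66.7% without. Kit, the stem cell factor receptor gene of mast cells and progenitors, was not among the 9, with 91.2% and 74.4%, and Dpp4 (29.8% and 33.3%) and Itgb3 (10.5% and 15.4%) were lower with Ptprc. The 6 epithelial markers had a median of 13.0 points with 0 past 20, the 3 endothelial markers 7.69 with 1 past 20 (Cd34), and the 6 stromal markers 9.78 with 2 (Nt5e and Mme). Markers found in nearly all cells have little room to differ, here and for Cd40 and Il17ra below. Krt19 and Krt18, found in 57 of 57 cells with Ptprc, could not exceed the 7.69 and 12.8 points that they showed. The median over all 95 assays was 16.3 points. In the 48 cells with the earliest Gapdh the median of the 15 surface genes was -2.94 points, with 2 higher by at least 20 (Kit and Enpep) and 2 lower by as much (Cd55, 64.7% and 85.7%, and Anpep, 41.2% and 64.3%), and that of the epithelial markers was 0, against 4.20 over all 95 assays.

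For Cd40, 25 of 95 assays (26.3%) were higher by at least 20 points in cells with Cd40 and 0 (0%) lower. Ptprc was in place 3, detected in 72.1% of cells with Cd40 (49 of 68) and in 28.6% without (8 of 28). Il17ra was in place 8, with 60.3% (41 of 68) and 25.0% (7 of 28). Tdgf1 led with 83.8% of cells with Cd40 and 35.7% without, and Enpep had 77.9% and 32.1%. The 15 surface genes of blood cells had a median difference of 12.4 points and the 6 epithelial markers 9.87, against 12.4 over all 95 assays.

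For Il17ra, 16 of 95 assays (16.8%) were higher by at least 20 points in cells with Il17ra and 0 (0%) lower. Ptprc was in place 6, with 75.0% of cells with Il17ra (36 of 48) and 43.8% without (21 of 48), and Cd40 in place 7, with 85.4% (41 of 48) and 56.2% (27 of 48). Krt15, a keratin gene of basal layers, led with 79.2% of cells with Il17ra and 37.5% without. The 15 surface genes of blood cells had a median difference of 12.5 points and the 6 epithelial markers 2.08, against 10.4 over all 95 assays. Of the 3 genes Il17ra had the fewest assays past 20 points, and Ptprc and Cd40 were among them.

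Leaving out the 8 low-Gapdh cells lowered the number of assays higher by at least 20 points to 16 for Ptprc (16.8%), 14 for Cd40 (14.7%) and 7 for Il17ra (7.37%), and each of the 3 genes was still past 20 points with both others. Within the 48 cells with the earliest Gapdh, each of the 3 genes was again detected more often with the others. Cd40 was detected in 33 of 34 cells with Ptprc and in 7 of 14 without, and Il17ra in 26 of 34 and 6 of 14. Il17ra was detected in 29 of 40 cells with Cd40 and in 3 of 8 without. The background in these cells was 23.2% of 95 assays higher by at least 20 points and 7.37% lower for Ptprc, 23.2% and 13.7% for Cd40, and 12.6% and 5.26% for Il17ra. Enpep (97.1% and 35.7%), Mst1r, a receptor kinase gene (52.9% and 0 of 14, which by the exact interval allows up to 23.2%), Itgae (58.8% and 7.14%) and Cd34 (85.3% and 35.7%) differed more than Cd40 or Il17ra between cells with and without Ptprc. The cells without Cd40 number only 8 here, so 1 cell moves their share by 12.5 points.

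In the 48 cells with the latest Gapdh the members differed in the same direction but stood out less from the other assays. Cd40 was detected in 69.6% of cells with Ptprc and 48.0% of cells without, in place 40 of 95 by difference, and Il17ra in 43.5% and 24.0%, in place 47. The background there was 48.4% of 95 assays higher by at least 20 points for Ptprc, and Il17ra was not one of them. For Cd40, Ptprc was in place 26 and Il17ra in place 25, with 30.5% of assays past 20 points. For Il17ra, Ptprc was in place 18 and Cd40 in place 13, with 21.1% past 20 points.

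**Figure D5:**
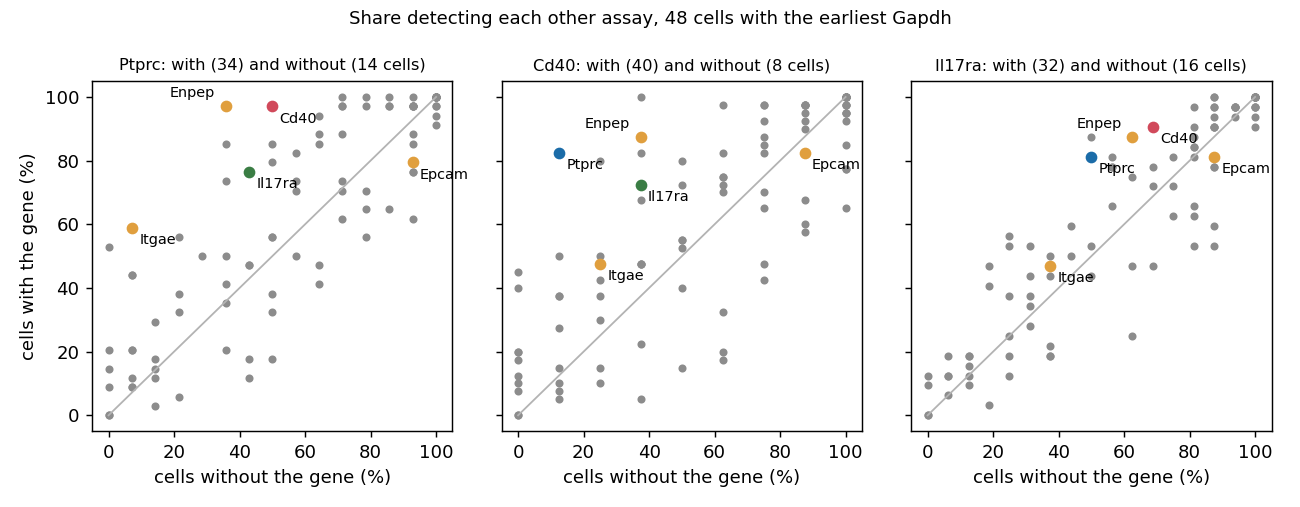
Share of cells detecting each of 95 other assays in cells with a gene (vertical axis, %) and in cells without it (horizontal axis, %), for Ptprc, Cd40 and Il17ra, over the 48 cells with the earliest Gapdh; each point is an assay and the diagonal marks equal shares. Cd40 is at 97.1% with and 50.0% without Ptprc, and Epcam lies below the diagonal at 79.4% and 92.9%.

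Assays lower by at least 20 points with these genes were seen mainly in the 48 cells with the earliest Gapdh, where 7 of 95 were lower for Ptprc, 13 for Cd40 and 5 for Il17ra. With only the low-Gapdh cells left out there were 0 for each gene (0%), and in the latest-Gapdh cells 0 (0%), 1 (1.05%) and 0. The cells without the gene are few here (14, 8 and 16), the difference between the sets of cells was not tested, and the genes named were chosen after their values were seen. Wnt7a, a WNT ligand gene of uterine epithelium, was detected in 21 of 34 cells with Ptprc (61.8%) and in 13 of 14 without (92.9%), whereas over all 96 cells it was higher with Ptprc, at 59.6% with and 46.2% without. It was detected in 26 of 40 early-Gapdh cells with Cd40 and in 8 of 8 without, against 55.9% and 50.0% over all cells. Pax2, a Müllerian duct regulator, was detected in 19 of 34 cells with Ptprc and in 11 of 14 without, and in 17 of 32 cells with Il17ra and 13 of 16 without. Emx2, another duct regulator, was detected in 17 of 32 cells with Il17ra (53.1%) and in 14 of 16 without (87.5%). The differences given here were not the lowest of the 95 assays, which were -32.4 points for Ptprc, -45.0 for Cd40 and -37.5 for Il17ra. The reference gene Hprt was also lower with Cd40, detected in 31 of 40 cells with it and in 8 of 8 without.

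By level, the genes most like Ptprc after a linear correction for depth (the count of detected assays) were Enpep (rho = 0.44, r = 0.48), Cd34 (0.40 and 0.42), Dppa2 (0.36 and 0.38), Tdgf1 (0.36 and 0.34) and Nanog (0.35 and 0.31). The likeness runs over 96 cells and 85 genes found in at least 10 cells, with undetected cells at a level of 0. Cd40 followed in place 6 at 0.34, and Il17ra was in place 17 at 0.13. The least like were the epithelial markers Krt18 (-0.31) and Cdh1 (-0.35). Without the depth correction their rho was positive, at 0.17 and 0.20, against a median of 0.28 over the other genes.

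The genes most like Cd40 were Dppa2 (rho = 0.49), Lgr6 (0.40), Nanog (0.39), Enpep (0.39) and Tdgf1 (0.38), and the least like were Wnt7a (-0.33) and Cd55 (-0.39). Those most like Il17ra were Dppa2 and Lgr6 (0.29 each), Cd34 (0.28), Fzd7 (0.27) and Krt15 (0.26), and the least like Wnt7a (-0.33) and Emx2 (-0.34). Without the depth correction none of these lowest values was negative. They were 0.11 (Wnt7a) and 0.003 (Cd55) for Cd40, and 0.013 (Wnt7a) and 0.003 (Emx2) for Il17ra. Dppa2, Nanog and Tdgf1 are known from embryonic stem cells, and Lgr6 and Fzd7 are receptors of the R-spondin and WNT pathways. All of these values are weak, and those of Il17ra are the weakest at the upper end.

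Over cells in the order of their numbers, taken 24 at a time, Ptprc was detected in 13, 14, 17 and 13 cells, Cd40 in 17, 19, 18 and 14, and Il17ra in 9, 12, 13 and 14. The labels do not tie these numbers to plate positions. The exact intervals of the 4 sets overlap for each gene.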

How the data were processed

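Per the labels, single cells were lysed and preamplified with a one-step reverse transcription PCR kit and run on a Fluidigm Biomark array with EvaGreen. The deposited score table holds raw Ct values per the file headers, with 40 where none was recorded. The ratio table that the authors deposited holds fold changes, normalised per the file headers to a housekeeping gene and to cell 1, and recomputing it from Ct with Gapdh gave the same values within 6.55e-06 (log2). It served as an alternative. The labels and files give no threshold settings, quality filters or primer sequences, so no assay sequence is shown and the transcript forms amplified are unknown.

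Ptprc and Cd40 were matched by name or synonym, and Il17ra by its CD name, in a RefSeq table (GRCm38.p6, names only). Detection meant a Ct below 28, and the level was 28 minus Ct. No cell was removed, and doublets were addressed only by an alternative without the deepest 10% of cells. No pair of cells shared a recorded Ct (0 identical values). At 96 cells the exact 95% interval of a share reaches about 10 points to each side. Named genes are the 3 members, the references, Epcam, 3 neighbours in share above and 3 below, the 5 most and 2 least alike by level, and the marker lists. Genes outside that rule, among them Itgae, Mst1r and those named for co-detection, were chosen after their values were seen. The members and lists were chosen with earlier results of these data known. The likeness step was tested on simulated data in which linked genes shared both level and detection. A link in level alone is masked by undetected cells, so the simulation gives no check of such links or of the size of the values here. Work used Python 3.11.15, numpy 2.4.6, pandas 2.3.3, scipy 1.17.1 and matplotlib 3.10.9.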

Additional observations from a re-analysis of the deposited data

How the results depend on the processing

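The alternatives gave 279 values for the main results, of which 258 lay inside the 95% interval of a share, 1 SD of a level, 1.5 times a count or 0.1 of a rho, and 21 moved. Of 96 differences in detection with minus without a gene (members and Epcam), 5 reversed, all of them of Epcam: with Ptprc, at 13.2 points over 96 cells, -2.38 where Gapdh, actin and Hprt were all detected and -13.4 in the 50% of cells with the earliest Gapdh; with Cd40, at 2.94 points over all cells, -9.09 without low-Gapdh cells, -11.2 without the 10% of cells with fewest genes and -5.00 in the earliest-Gapdh cells. The cause was not tested. No difference between members reversed, but sizes moved with the Gapdh set. In the 50% of cells with the latest Gapdh, Cd40 with minus without Ptprc fell from 37.2 to 21.6 points and Il17ra from 32.4 to 19.5. Ptprc with minus without Cd40 went from 43.5 to 22.1, and to 70.0 in the earliest-Gapdh cells, and Il17ra from 35.3 to 22.9. With minus without Il17ra, Ptprc (31.25 to 21.9) and Cd40 (29.2 to 25.0) moved less. Epcam with Ptprc rose to 31.0. Ct limits of 24 and 26 and any recorded Ct moved no share beyond its interval. For the 3 genes they could hardly do so, with 1 of 173 recorded Ct values at 24 or later, yet they count among the 258. The 50% of cells with the earliest Gapdh, chosen after the data were seen, moved 5 shares: Cd40 in cells with Ptprc 97.1%, Il17ra in cells with Ptprc 76.5%, Ptprc in cells with Cd40 82.5% and without 12.5%, and Il17ra in cells with Cd40 72.5%. Epcam, in the 63 cells with all reference genes, was at 90.5% without Ptprc, 89.4% with Cd40, and 88.2% with and 89.7% without Il17ra, and without the 10% of cells with fewest genes at 90.0% without Cd40. Mean levels on other scales were -7.36 (Ptprc), -7.26 (Cd40) and -7.70 (Il17ra) minus Gapdh, and 12.09, 12.19 and 11.75 on the log2 deposited folds, which follows from the scale and puts Cd40 first. With actin in place of Gapdh, rho was 0.53 for Ptprc, 0.38 for Cd40 and 0.14 for Il17ra; the cause was not tested. By Pearson r, 3 of the 5 genes most like Ptprc, and 3 of those most like Cd40, were again among the 5. Of 45 likeness values 16 moved, 15 of them without the fit on detected genes. With Epcam required, shares of Epcam gave no value. No paired analysis was possible because all cells form 1 group. Cells with little template limit what could be detected.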
